A study of Cavia porcellus with 72 samples.

Results

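Windows of 100 bases that carry no annotation were taken from the bisulfite capture tables of the F1 and F3 hippocampus. A window belonged to this set where its annotation was given as NA. They numbered 2613 of 53723 windows in F1 and 2984 of 46788 in F3, which is 5152 of 93934 distinct positions over both tables. Guinea pigs of the Dunkin-Hartley strain were studied at postnatal day 40, all of them female and descended through the paternal line from F0 pregnancies. The pregnant F0 animals had received the synthetic glucocorticoid betamethasone (sGC) or saline (control), F1 animals were exposed in the womb, and F1 and F2 males were mated with untreated females to give F2 and F3. The labels put 6 control and 6 sGC animals in each generation for methylation, whereas the design text gives 7 control and 5 sGC animals in F3, so the groups behind the F3 table are not certain. DNA came from powdered right hippocampus, a mixture of cell types.

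DNA methylation in mammals is found mainly on cytosines that precede a guanine (CpG sites). Bisulfite converts unmethylated cytosine, so that methylated cytosines can be counted in sequence reads. Capture probes enrich the reads for chosen DNA, here promoters and enhancers picked from gene starts and from chromatin marks of this tissue. By the paper's account some reads still fell outside the chosen DNA. A genome assembly such as cavPor3 leaves many sequences on short scaffolds that are not placed on a chromosome. A window can be named by its nearest gene only where its scaffold holds a gene model.

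Being listed was not a neutral property of a window. The tables hold only windows and CpGs whose difference between the sGC and control animals was at least 2 percentage points in size, as found in every row of all 6 tables, and a site needed at least 10 reads. The differences and their p-values are the authors' own comparison and were not used. The values below are therefore the positions at which windows and CpGs were listed, with no methylation level, no direction and no value per animal. None of the counts can be set against the spread between animals, and no test was made on them.

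The missing annotation belonged to whole scaffolds. In F1, 528 scaffolds held windows without annotation and 382 held annotated windows, and 0 scaffolds held both. In F3 the numbers were 588, 382 and 0. Windows without annotation made up 4.86% of the F1 table and 6.38% of the F3 table. The lowest scaffold number among them was 164 in both generations, so that every scaffold with a lower number that was listed held annotated windows. From scaffold 164 upwards the windows were divided more evenly, and 44.1% of 5927 windows in F1 and 48.8% of 6120 in F3 had no annotation. These higher numbers also included 218 scaffolds with annotated windows in each generation, so that a high scaffold number alone did not define the set. Of all listed windows, 59.0% in F1 and 59.7% in F3 were annotated as intergenic, 26.9% and 25.6% as intronic, and 4.54% and 4.2% as promoters. Windows without annotation had none of these classes, and 0 of them had a nearest gene.

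Scaffold numbers followed size closely as far as the listed positions show it. Over the 1324 scaffolds of all 6 tables, the scaffold number and the last listed base had a Spearman correlation of -0.97, a description of the assembly's numbering in which each point is 1 scaffold. The last base of a listed window lay at a median of 29325 bases on the F1 scaffolds without annotation and of 24825 bases on those of F3. On annotated scaffolds of the same range of numbers it lay at 203675 bases in F1 and 244750 in F3. Scaffolds without annotation were thus shorter by this measure in both generations. The shortest reached base 150 and the longest base 1995000 in F1, and base 1995050 in F3, both on scaffold_164. The true length of a scaffold may exceed its last listed base.

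Windows were spread thinly over most of these scaffolds. The median was 2 windows per scaffold in F1 and 3 in F3, against 9 and 8 on annotated scaffolds with numbers from 164 up. A single window was listed on 161 of the 528 scaffolds in F1 (30.5%) and on 182 of 588 in F3 (31.0%). At the other end, 59 scaffolds in F1 and 70 in F3 had 10 or more windows, and they held 47.7% and 48.4% of the windows without annotation.

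**Figure D1:**
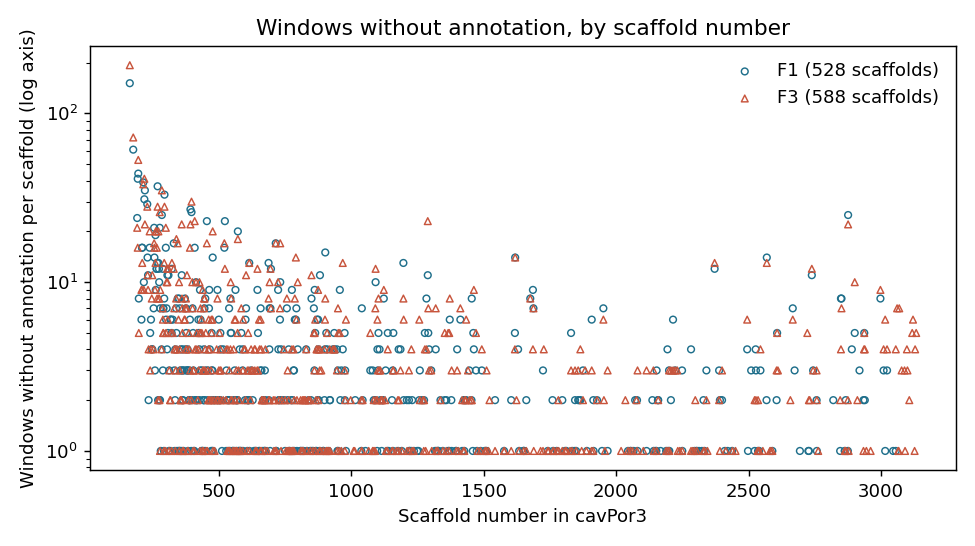
Each point is 1 scaffold without annotation, with its cavPor3 number on the x axis and its count of listed windows on the y axis (log axis); circles are F1 and triangles F3. The highest points are scaffold_164 with 151 windows in F1 and 193 in F3, and counts of 1 are found from scaffold_278 upwards.

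The same 3 scaffolds led in both generations. Scaffold_164 had 151 windows in F1 and 193 in F3, scaffold_177 had 61 and 72, and scaffold_196 had 44 and 53. Together they held 256 windows in F1 (9.80%) and 318 in F3 (10.7%). On scaffold_164 the F1 windows ran from base 44001 to base 1995000 and the F3 windows from base 44001 to base 1995050. The first window on this scaffold was the same in both generations, and neighbouring starts were a median of 7425 bases apart in F1 and 5475 in F3. On scaffold_177 the windows ran from base 125101 to 1504450 in F1 and from 56251 to 1470850 in F3. On scaffold_196 they ran from base 10801 to 1066450 in F1 and from 2951 to the same last base in F3. The windows of these scaffolds were therefore distributed over most of the listed length and did not form 1 cluster.

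**Figure D2:**
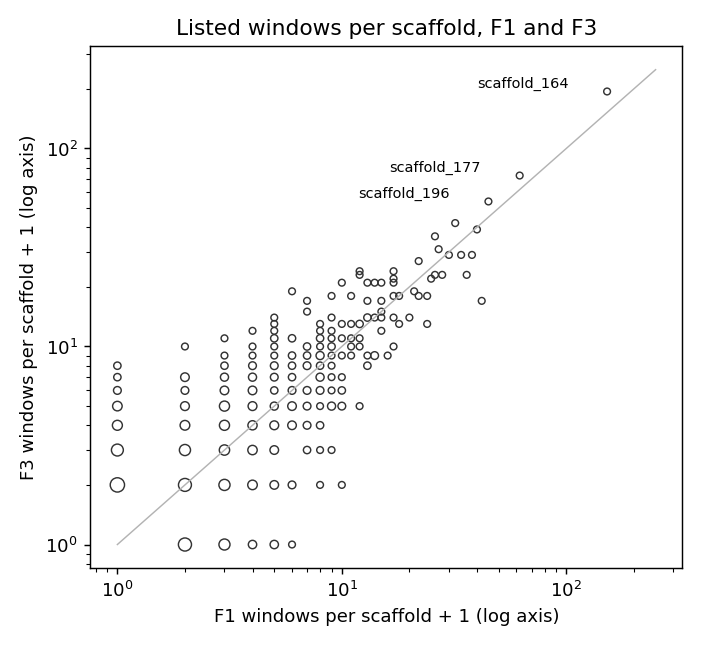
Each circle is a pair of window counts on a scaffold without annotation, F1 on the x axis and F3 on the y axis (both counts + 1, log axes), with larger circles where more scaffolds share a pair. The grey line marks equal counts, and scaffold_164, scaffold_177 and scaffold_196 lie above it.

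Of the 678 scaffolds with a window without annotation in either generation, 438 were listed in both, 90 in F1 only and 150 in F3 only. Scaffold numbers ended at 3056 for the F1 windows and at 3133 for the F3 windows, so that scaffolds past 3056 count among the 150. The 438 were 83.0% of the F1 scaffolds and 74.5% of the F3 scaffolds. Of 241 annotated scaffolds of the same range of numbers, 195 were listed in both, or 89.4% of each generation. Over all annotated scaffolds it was 359 of 405, or 94.0% of each generation. Whole scaffolds without annotation were thus listed in both generations less often, a difference that was not tested. They also held fewer windows each, a median of 2 in F1 and 3 in F3. On annotated scaffolds of the same range of numbers the medians were 9 and 8. The part of these window counts in the difference was not tested. Among the 678 scaffolds, more windows were listed in F3 than in F1 on 346, fewer on 240, and equal numbers on 92. The 346 include the scaffolds past 3056, where no F1 window was listed. The Spearman correlation of the counts was 0.57 over the 678 scaffolds, which share the assembly and the capture probes and differ in length. Scaffolds whose counts differed most were picked out after their values were seen, among those with 20 or more windows in all. Scaffold_194 had 41 windows in F1 and 16 in F3, scaffold_340 had 5 and 18, and scaffold_391 had 6 and 16. Without values per animal it was not tested whether such gaps exceed the spread between animals.

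Windows were placed every 50 bases, so that neighbours share 50 of their bases and 1 stretch of DNA can be listed several times. Merging windows that overlap gave 2141 regions in F1 and 2457 in F3, which covered 237700 and 272050 bases. Most regions were 1 window, 1717 of 2141 in F1 (80.2%) and 1971 of 2457 in F3 (80.2%), close to the 80.9% over all annotated regions in each of the generations. The longest runs of overlapping windows were 5 windows, or 300 bases. Windows that stood side by side without a shared base were kept apart. In F3 this divided scaffold_215:504051-504300 from scaffold_215:504301-504550, each of 4 windows, which form a longer unbroken stretch. The runs of 5 overlapping windows were scaffold_256:281351-281650 and scaffold_455:155101-155400 in F1, and scaffold_1372:1251-1550 in F3 (cavPor3, no strand given). The run on scaffold_256 was overlapped by 3 windows of F3 and that on scaffold_1372 by 2 windows of F1, while the run on scaffold_455 was overlapped by 0 windows of F3.

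Exactly the same window was listed in F1 and F3 at 445 positions without annotation. This was 17.0% of the F1 windows and 14.9% of the F3 windows. For annotated windows on scaffolds with numbers from 164 up it was 452 windows, 13.6% of F1 and 14.4% of F3, and over all annotated windows it was 6132 windows, 12% of F1 and 14% of F3. The share of windows without annotation lay above both shares of annotated windows by a few percentage points in F1 and by less than 1 point in F3. Counted by an overlap of 1 base or more, 25.1% of the F1 windows and 22.3% of the F3 windows without annotation met a window of the other generation, where all annotated windows had 20.02% and 23.3%. By this measure the F3 share no longer lay above that of annotated windows. The differences are between shares of listed positions, and none was tested. Windows without annotation that were not shared lay a median of 3200 bases (F1) and 4350 bases (F3) from the nearest window of the other generation on the same scaffold.

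**Figure D3:**
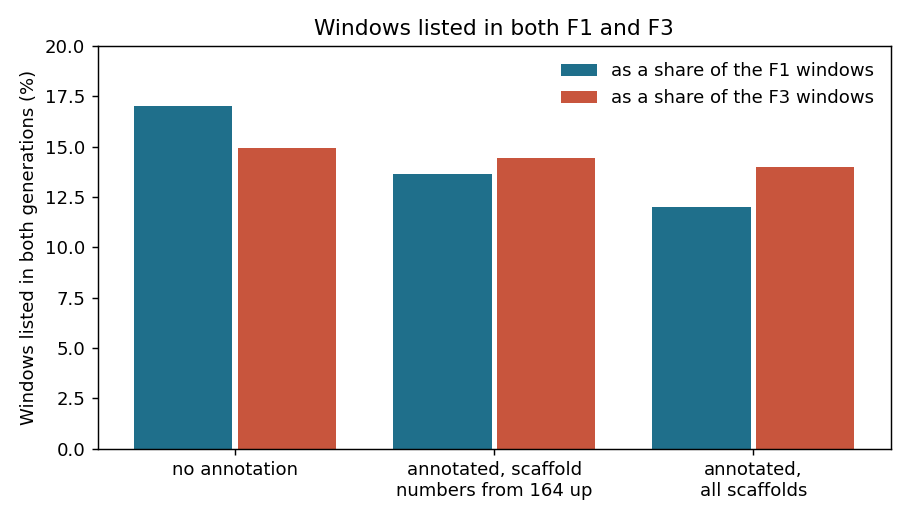
Bars give the windows listed at the same position in F1 and F3, as a percentage of the F1 windows and of the F3 windows, for windows without annotation, annotated windows on scaffolds with numbers from 164 up and all annotated windows. The bars for windows without annotation reach 17.0% and 14.9%, those for all annotated windows 12% and 14%.

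The 445 shared windows lay on 221 scaffolds, 131 of which held exactly 1. Scaffold_164 held 25 of them, scaffold_177 and scaffold_215 12 each, and scaffold_2876 10. Merged, they formed 396 regions, of which 350 were 1 window. Regions of 3 shared windows were scaffold_256:281451-281650, scaffold_1123:20451-20650 and scaffold_2998:1851-2050, and 3 was the most. On scaffold_164 the shared windows were 16.6% of the 151 F1 windows and 13.0% of the 193 F3 windows. They ran from scaffold_164:44001-44100 to scaffold_164:1994901-1995000, and overlapping pairs stood at scaffold_164:708301-708450 and scaffold_164:763351-763500. On scaffold_177 they included the overlapping pair at scaffold_177:1316251-1316400. A further pair there, scaffold_177:1421751-1421850 and scaffold_177:1421851-1421950, stood side by side. The other shared windows of this scaffold lay between base 327101 and base 1313700. On scaffold_196 the 5 shared windows were 11.4% of F1 and 9.43% of F3. They were scaffold_196:116251-116350, scaffold_196:135701-135800, scaffold_196:761951-762050, scaffold_196:1059101-1059200 and scaffold_196:1066351-1066450. The annotation used by the authors assigned no gene, exon or intron to any of these positions.

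The share of windows listed in both generations differed with the extent of the scaffold, a split chosen after the values were seen. On the 198 scaffolds without annotation whose last listed base was at most 10 kb, 90 windows were shared, 27.1% of 332 F1 windows and 22.4% of 402 F3 windows. On the 296 scaffolds of over 10 and up to 100 kb the shares were 19.9% of 758 and 17.2% of 877. On the 184 scaffolds over 100 kb they were 13.4% of 1523 and 11.96% of 1705. The shares thus fell from the shortest to the longest scaffolds in both generations. Annotated scaffolds with numbers from 164 up did not show this order. There, 5 windows were shared on the 26 scaffolds of up to 10 kb (7.14% of 70 F1 windows and 9.43% of 53 F3 windows), and the shares over 100 kb were 13.9% and 14.9%. Per length up to the last listed base, windows on scaffolds without annotation stood at 4.82 per 10 kb in F1 and 5.31 in F3 up to 10 kb, and at 0.237 and 0.2598 over 100 kb. The direction is largely set by the measure, since a scaffold enters only with a listed window and a short one then has at least 1 window per 10 kb. Annotated scaffolds of up to 10 kb stood at 6.90 in F1 and 3.54 in F3, and their shares rest on 5 shared windows. The part of density in the shares was not tested.

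**Figure D4:**
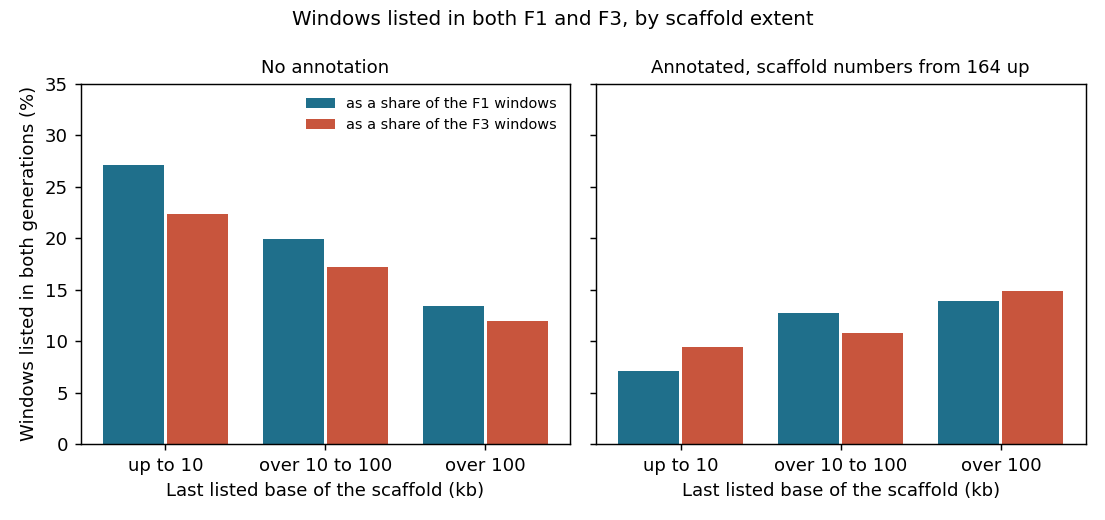
Bars give the windows listed at the same position in F1 and F3 as a percentage of each generation's windows, by the last listed base of the scaffold in kb; the left panel shows scaffolds without annotation and the right panel annotated scaffolds with numbers from 164 up. On the left the F1 bars fall from 27.1% to 13.4%, and on the right they rise from 7.14% to 13.9%.

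Among the 47 scaffolds with 10 or more windows in each generation, windows were densest on scaffold_2876, whose last listed base was 5150. It had 25 windows in F1 and 22 in F3, or 4.85 and 4.27 per kb, against medians of 0.0462 and 0.0514 per kb. Of these windows 10 were shared, 40.0% of F1 and 45.5% of F3. All listed windows of this scaffold merged into 15 regions in F1, from base 451 to base 5150, and into 14 in F3, from base 351 to the same last base. Regions with the same bounds in both generations were scaffold_2876:951-1100, scaffold_2876:2401-2550, scaffold_2876:2701-2850, scaffold_2876:4551-4650 and scaffold_2876:5051-5150. Gaps separated most of the listed regions, but some regions stood side by side without sharing a base. In F1 these were scaffold_2876:2201-2400 and scaffold_2876:2401-2550. In F3 they were scaffold_2876:3301-3450 and scaffold_2876:3451-3600, and also scaffold_2876:4901-5050 and scaffold_2876:5051-5150. Scaffold_2569 had 14 and 13 windows up to base 6200, of which 7 were shared. Scaffold_2739 had 11 and 12 windows up to base 5100 with 4 shared, and scaffold_2372 had 12 and 13 windows up to base 6850 with 6 shared. Scaffold_2998, with fewer windows, had 8 in F1 and 9 in F3 up to base 2055, and 6 of them were shared. These scaffolds were picked out after their values were seen. Without scaffold_2876 the shares on scaffolds of up to 10 kb were 26.1% of F1 and 21.1% of F3.

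In the tables used here, single CpGs on the same scaffolds were listed for F1 alone. The F1 CpG table had 17788 CpGs without annotation among 90611, or 19.6%, on 796 scaffolds, again with 0 scaffolds that held annotated CpGs as well. For F1 windows the share was 4.86%. From scaffold 164 upwards it was 51.4% of 34602 CpGs, where that of windows was 44.1%, so that the shares lay closer together than over the whole tables. The F3 CpG table reached scaffold 3088. It had 19453 rows from scaffold 164 upwards, all annotated, and 0 on the 678 scaffolds of the windows without annotation. These are rows and not distinct CpGs, since its 74064 rows gave 70002 distinct positions. Both F2 tables ended at scaffold 86 and held no row of any kind from scaffold 164 upwards. Whether the windows without annotation were listed in F2, and their CpGs in F3, was not analysed here.

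Of the 678 scaffolds with windows, 583 had a listed F1 CpG and 95 had none, and 213 further scaffolds had CpGs and no window. Scaffolds without an F1 CpG were 37 of those with F1 windows and 79 of those with F3 windows. The F1 CpG table ended at scaffold 3050, so that the 95 include scaffolds past this number. Of annotated scaffolds of the same range of numbers, 241 held a window and 241 held an F1 CpG. How many of them held both was not counted. The 678 scaffolds held 16865 CpGs, 94.8% of all CpGs without annotation. The most CpGs were on scaffold_164 (1743), scaffold_221 (446) and scaffold_196 (375). Scaffold_177, with more windows than either of the last, had 203 CpGs. The scaffolds named above as densest in windows, among those with 10 or more in each generation, had few CpGs in number but not all of them per length. Scaffold_2876 had 5 CpGs, or 0.971 per kb up to the last listed base, and scaffold_2372 had 10, or 1.46 per kb, where scaffold_164 had 0.874 per kb. Scaffold_2569 and scaffold_2739 had 1 CpG each, or 0.161 and 0.196 per kb. Over the 678 scaffolds the number of F1 windows and of F1 CpGs had a Spearman correlation of 0.64, where both counts share the F1 libraries and scaffold length.

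**Figure D5:**
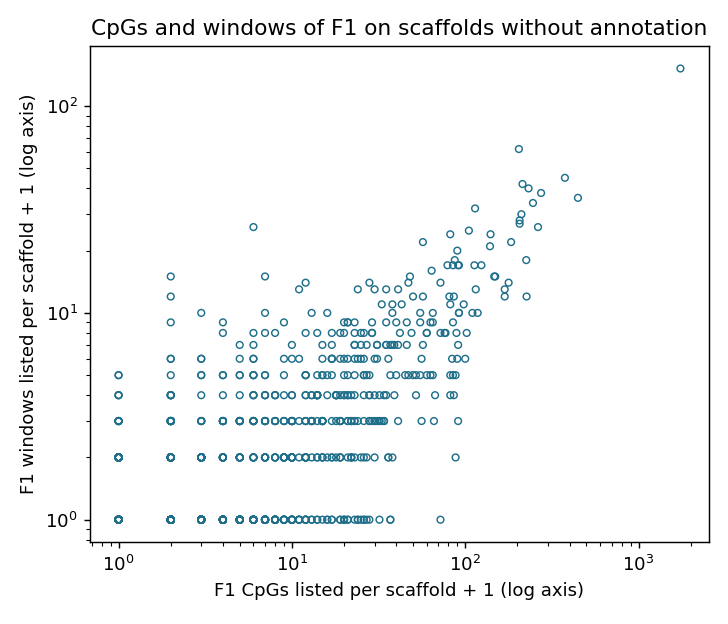
Each circle is 1 scaffold without annotation, with its F1 CpGs on the x axis and its F1 windows on the y axis (both counts + 1, log axes). Scaffold_164 stands at the upper right with 1743 CpGs and 151 windows, and scaffold_2876 stands out at the left with 5 CpGs and 25 windows.

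Windows and CpGs were mostly listed at different places. Of the 17788 CpGs without annotation 641 lay inside an F1 window (3.60%). It was 5.49% of annotated CpGs on scaffolds with numbers from 164 up, and 6.67% of all annotated CpGs. On scaffold_164 it was 47 of 1743 CpGs, on scaffold_177 14 of 203 and on scaffold_196 17 of 375. Seen from the windows, 512 of 2613 F1 windows without annotation held a listed CpG (19.6%) and 2101 held none. On annotated scaffolds with numbers from 164 up the share of windows with a CpG was 17.8%, and over all annotated windows it was 7.42%. Of the F3 windows without annotation 17.9% held a listed CpG of F1, close to the share of the F1 windows. In the share that held a CpG, windows without annotation thus resembled annotated windows of the same scaffold numbers more than those of the whole table. For each F1 window 6.81 CpGs were listed on scaffolds without annotation, 5.07 on annotated scaffolds from 164 up and 1.42 over all annotated scaffolds.

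Some windows were listed in both generations and also held listed CpGs of F1. They numbered 97 of the 445 shared windows (21.8%). The share was 19.6% over all F1 windows without annotation and 17.9% over all those of F3, a difference that was not tested. The most CpGs in 1 window without annotation of F1 was 6, in scaffold_256:281551-281650, which was listed in F1 and F3, and in scaffold_2527:551-650, which was listed in F1 only. The first of these belongs to the run of 5 windows of F1 described above. Among the F3 windows the most was 9 CpGs of F1, in scaffold_2081:851-950, a position not listed in F1. In scaffold_1372:1351-1450, part of the longest run of overlapping windows of F3, 5 CpGs were listed, and this window was shared as well. In the same run scaffold_1372:1251-1350 held 8 CpGs of F1 and scaffold_1372:1301-1400 held 7, and neither position was listed in F1. Of the 2613 F1 windows without annotation, 50 held 3 CpGs or more. Among annotated F1 windows of the same range of scaffold numbers it was 89 of 3314, and among all annotated F1 windows 356 of 51110. In that same range the most F1 CpGs in 1 annotated window was 15 for F1 windows and 18 for F3 windows. Windows without annotation thus did not reach the highest counts, and these differences were not tested.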

How the data were processed

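Bisulfite capture libraries of the hippocampus were sequenced by the authors, trimmed with Trimmomatic 0.32, aligned to cavPor3 with bsmap 2.74, cleared of duplicates with Picard 1.93, compared between sGC and control with methylKit 1.4.0 and annotated with Homer 4.6. The deposited tables hold positions of windows and CpGs, the authors' difference in percent methylation, p-value and q-value, and the annotation. The columns of the comparison were not used, except to find that every row differs by at least 2 percentage points. Depth per animal is unknown beyond the minimum of 10 reads. The RNA counts could not be joined to windows without genes and were not used.

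Window starts of F2 and F3 were lowered by 1 base to match F1, and CpGs were matched by the end column of F1 and the start columns of F2 and F3. Positions were compared with Python 3.11.15, pandas 2.3.3, numpy 2.4.6 and scipy 1.17.1, and plotted with matplotlib 3.10.9. Merging, overlap and containment were tested on simulated windows. The rule named shared windows and the 3 scaffolds with the most windows per table. As 445 windows were shared, only those on these scaffolds and in the longest runs of overlapping windows are named. Other scaffolds and windows were picked for density, uneven counts, side-by-side position or CpGs after the values were seen. The members and lists were chosen with earlier results of these data known. No genome of this build was used here, so sequences, base composition and copies were not analysed.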

Additional observations from a re-analysis of the deposited data

How the results depend on the processing

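Of 19 alternatives, 15 gave counts within 1.5 times the reported ones. Requiring all gene and distance columns to be empty, or counting rows as deposited, left the counts at 2613, 2984 and 445. Both settings picked the same windows, so their agreement says nothing about how stable the counts are. Leaving out scaffold_164 gave 2462, 2791 and 420. Windows that overlap by 1 base or more numbered 656 in F1 and 665 in F3 in place of 445. Merging windows up to 200 bases apart gave 1992 and 2296 regions. Counting windows as shared where they lie on the same scaffold raised 445 to 2470 in F1 and 2704 in F3, and counting CpGs on the same scaffold instead of inside a window raised 641 to 16223 for F1 windows and 699 to 16411 for F3 windows, both by the wider definition itself. Single animals could not be left out, because no values per animal were used. Base composition and copies in the genome were not run. No paired analysis was possible because the results come from no test.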
